A study of Homo sapiens with 6 samples.

Results

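The comparison pooled the 4 arrays titled Comp.2 or Comp.4 into 1 treated group and set it against the 2 vehicle arrays, so all 6 arrays of the series were used. It asked what both compounds share: which genes had all 4 treated arrays above, or all 4 below, both vehicle arrays. Of 22395 named genes measured, 4850 met that condition, which some genes meet by random spread alone. RNA came from A549, an established human lung adenocarcinoma line labelled as alveolar basal epithelial cells, and every group used the same line in serum-containing DMEM with added glutamine. Cells received vehicle only, 2 µM Comp.2 or 2 µM Comp.4 at 24 h after plating, and RNA was taken 2 days later, with 2 arrays per group. Both compounds are known here only by code names. The series title places them among sequence-specific inhibitors of histone acetyltransferases, the design text calls them 646-PIP, and the treatment protocol writes 664-PIP. The labels do not say whether the 2 samples of a group came from separate cultures. Their spread could thus be technical variation alone. A p-value here rests on that spread, shared in part over all genes. In the pooled test it rests also on the difference between the compounds. Each array was made from RNA of a whole culture, so fewer cells of a kind and less RNA per cell cannot be told apart.

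Histone acetyltransferases such as p300 and CBP, encoded by EP300 and CREBBP, add acetyl groups to histone tails, a mark found at active promoters and enhancers. The transcription factor p53 raises a set of genes that halt the cell cycle, repair DNA or start apoptosis, and its targets include CDKN1A, MDM2 and GDF15. The transcription factor ATF4 keeps up the synthesis, import and tRNA charging of amino acids when they run short, and C/EBP-ATF response elements of the form TGATGNAAT mark many of its targets.

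Of the 22395 genes, 4 passed the pooled test (limma, Benjamini-Hochberg adjusted p below 0.05). GDF15, a secreted stress cytokine of the TGF-beta family, and IGFL2-AS1, a long noncoding RNA, rose. GUSBP3, a transcribed pseudogene related to the beta-glucuronidase gene GUSB, and LINC00641, a long noncoding RNA, fell. These 2 higher and 2 lower genes made up 0.00893% of the genes in each direction. At an unadjusted p below 0.05 the counts were 1194 higher (5.33%) and 980 lower (4.38%). Without vehicle replicate 1 or without vehicle replicate 2 none passed, and without any 1 of the treated arrays GUSBP3 alone passed. With arrays centred on the median GUSBP3 alone passed.

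The stretch of 250 bases before the start of GDF15 is shown because GDF15 was the one protein-coding gene past the threshold. It is RefSeq sequence (GRCh38.p14, chr19:18385908-18386157, plus strand, 5′ to 3′), and the capitals mark a TATAAA box that begins 29 bases before the start.
GDF15: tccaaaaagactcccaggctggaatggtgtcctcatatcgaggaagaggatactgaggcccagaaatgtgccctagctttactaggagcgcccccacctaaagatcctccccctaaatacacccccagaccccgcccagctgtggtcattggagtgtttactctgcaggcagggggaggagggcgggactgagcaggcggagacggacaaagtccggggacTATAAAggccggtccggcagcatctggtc

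Promoters of RefSeq (250 bases before to 50 after the start) were matched to 15308 of the measured genes. Promoters on 1 chromosome were left out before matching. The shares thus refer to the matched promoters and not to the whole genome. The search covered 3 motifs on both strands, each counted on its own: TATAAA, TGATGNAAT and a p53 decamer. TGATGNAAT stood in 104 of all 15308 promoters (0.679%). It stood in 4 of the 74 promoters (5.41%) of genes whose treated arrays all lay at least 0.2 below both vehicle arrays on the log2 scale, and in 1 of 83 (1.20%) on the higher side. Without that margin the shares were 13 of 1675 (0.776%) for genes below vehicle and 8 of 1770 (0.452%) for genes above. The plan named only genes past the threshold, where 0 of 1 promoters held it in each direction, and the margin of 0.2 was not part of it. In a list of ATF4 targets and amino acid response genes 1 of 21 promoters held it, that of FGF21, whose arrays were not on one side. In a list of aminoacyl-tRNA synthetases 1 of 16 did. TATAAA stood in 1432 of all promoters (9.35%), and with the margin of 0.2 in 15 of 83 (18.1%) above and 14 of 74 (18.9%) below. The 4 genes below vehicle by that margin with TGATGNAAT, the motif associated with ATF4, are shown with it in capitals. Only BCAT1 among them belongs to amino acid metabolism. The 1 gene above vehicle with the motif, KRTAP10-3 (pooled difference 0.43), is not shown. The windows are GRCh38.p14 chr12:24949102-24949189 (minus strand) for BCAT1, chr19:57279868-57279956 (plus) for ZNF460, chr1:148279183-148279267 (plus) for LINC02806 and chr6:20534373-20534456 (plus) for CDKAL1. ZNF460 and LINC02806 hold the motif in its reverse complement.
BCAT1: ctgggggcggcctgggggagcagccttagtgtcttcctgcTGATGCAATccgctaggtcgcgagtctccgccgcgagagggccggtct
ZNF460: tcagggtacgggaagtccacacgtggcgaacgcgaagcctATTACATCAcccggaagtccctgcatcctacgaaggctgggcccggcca
LINC02806: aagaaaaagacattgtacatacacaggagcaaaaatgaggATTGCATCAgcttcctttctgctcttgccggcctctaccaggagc
CDKAL1: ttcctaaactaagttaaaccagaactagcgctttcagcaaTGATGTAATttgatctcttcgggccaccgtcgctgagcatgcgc

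The p53 decamer, the unit that occurs in pairs in p53 response elements, stood in 919 of the 15308 promoters (6.00%) and in 3 of the 29 matched promoters of a list of p53 targets (10.3%). It stood in 119 of 1770 promoters (6.72%) of genes above vehicle and 83 of 1675 (4.96%) of genes below, and with the margin of 0.2 in 4 of 83 (4.82%) and 4 of 74 (5.41%), all close to the share of all promoters. The 3 genes of the list, RPS27L, PLK2 and AEN, all had the 4 treated arrays above both vehicle arrays, and their windows are shown with the decamer in capitals. The windows are GRCh38.p14 chr15:63157487-63157576 (minus strand) for RPS27L, chr5:58460169-58460258 (minus) for PLK2 and chr15:88621266-88621339 (plus) for AEN. A match is a description of letters in this window, and factor binding was not measured.
RPS27L: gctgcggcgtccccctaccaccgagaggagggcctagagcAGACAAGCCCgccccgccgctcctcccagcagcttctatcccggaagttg
PLK2: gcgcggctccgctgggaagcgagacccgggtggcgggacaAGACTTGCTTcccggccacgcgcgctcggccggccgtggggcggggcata
AEN: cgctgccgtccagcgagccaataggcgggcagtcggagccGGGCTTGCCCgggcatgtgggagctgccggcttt

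GDF15 measured 9.23 in both vehicle arrays, 10.12 and 10.04 with Comp.2, and 9.91 and 10.02 with Comp.4, all as RMA log2 signal. The treated arrays lay close together and at least 0.68 above the vehicle arrays. The pooled difference was 0.79 ± 0.08 (log2, SE, 4 against 2 arrays; 1.73-fold; limma adjusted p = 0.0398), with 0.85 under Comp.2 and 0.74 under Comp.4. MIR3189, a microRNA gene whose start follows that of GDF15 in the RefSeq order, measured 4.63 and 4.83 with vehicle, 6.11 and 5.77 with Comp.2 and 4.94 and 5.36 with Comp.4. Only starts were ordered, and whether the MIR3189 probes also read RNA of GDF15 was not tested. The treated arrays of MIR3189 also lay above both vehicle arrays, with a pooled difference of 0.82 that did not pass (adjusted p = 0.435). PGPEP1, a peptidase gene on the other side of GDF15, was 0.25 higher and did not pass.

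IGFL2-AS1 measured 4.87 and 4.39 with vehicle, 6.58 and 6.25 with Comp.2, and 6.17 and 6.21 with Comp.4. The vehicle arrays were dim and lay 0.47 apart, yet every treated array was at least 1.31 above the higher of them. The pooled rise was 1.67 ± 0.15 (log2, SE; 3.19-fold; limma adjusted p = 0.0398), the largest rise among genes that passed. The measured IGFL family genes, which encode small secreted proteins and were taken by name, did not share it. IGFL1 differed by 0.19, IGFL2 by 0.11 and IGFL4 by -0.15, none with its treated arrays on one side. IGFL3, near IGFL2-AS1 in the RefSeq order, was not measured. LOC93429, a long noncoding RNA also near it, differed by 0.04 and was not on one side.

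GUSBP3 measured 7.35 and 7.41 with vehicle, 6.05 and 5.92 with Comp.2, and 5.72 and 5.83 with Comp.4. Both groups were tight and every treated array was at least 1.30 below the vehicle arrays. It fell by 1.50 on the log2 scale with an SE of 0.10 (limma adjusted p = 0.00508), the smallest adjusted p of all genes. GUSBP3 has near-identical copies, and the value is uncertain to the extent that its probes read them. GUSB differed by -0.01, GUSBP11 by 0.03, GUSBP4 by -0.18, GUSBP5 by 0.01, GUSBP10 by -0.06 and GUSBP19 by 0.21, none of them with its treated arrays on one side.

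LINC00641 measured 7.03 and 7.10 with vehicle, 6.29 in both Comp.2 arrays, and 6.18 and 6.06 with Comp.4. All 4 treated arrays lay at least 0.74 below vehicle. It fell by 0.86 on the log2 scale with an SE of 0.09 (limma adjusted p = 0.0398). The gene has a second, dim probe set, and with the mean of both in its place the difference was -0.52 and no longer passed. HNRNPC, the splicing factor gene next to LINC00641, measured 8.40 and 8.20 with vehicle, 7.98 and 7.97 with Comp.2, and 7.48 and 7.65 with Comp.4. It lay below vehicle on all 4 treated arrays, with a pooled difference of -0.53 that did not pass (adjusted p = 0.364).

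**Figure D1:**
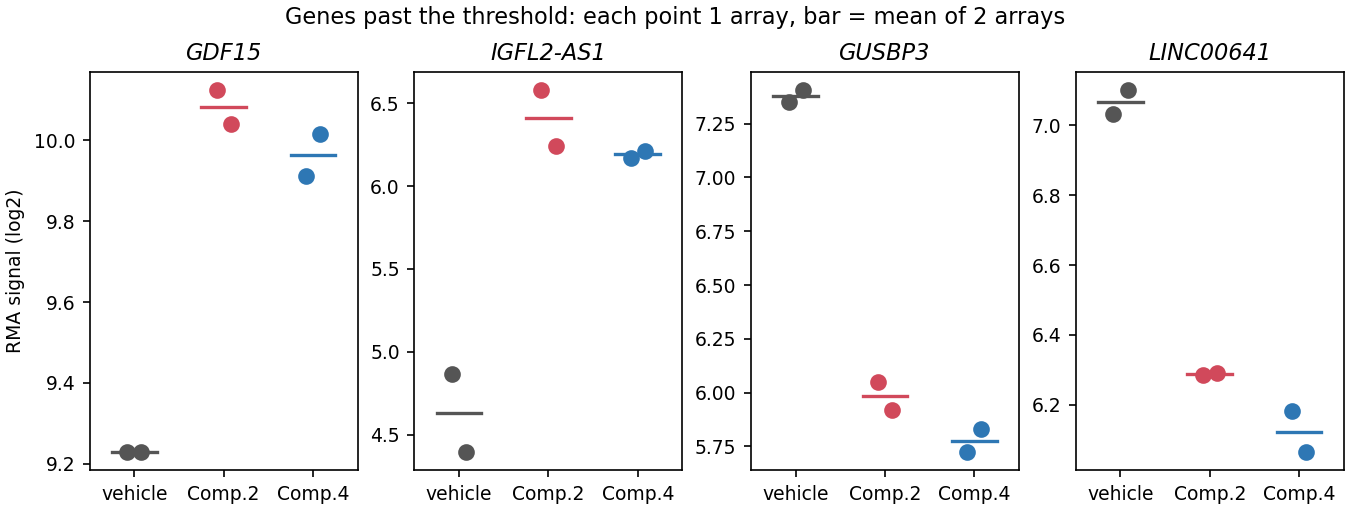
RMA log2 signal (y axis, a separate range per panel) of the 4 genes past the threshold on each of the 6 arrays, by group (x axis); each point is 1 array and each bar the mean of 2. GDF15 and IGFL2-AS1 lie above and GUSBP3 and LINC00641 below both vehicle arrays under either compound, by 0.68 to 1.31 log2 units at the nearest arrays.

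The genes just outside the threshold were RN5S70, named as a 5S RNA, at 0.61 (adjusted p = 0.0930), BCAT1 at -0.58, RNU7-77P, a U7 small nuclear RNA pseudogene, at -0.60 (both adjusted p = 0.153) and CD82, a tetraspanin membrane protein, at 0.75 (adjusted p = 0.185). All 4 had their treated arrays on one side of vehicle, and these genes were picked out after their values were seen. CD82 was dim, at 4.52 and 4.30 with vehicle, 5.24 and 4.98 with Comp.2, and 5.24 and 5.16 with Comp.4.

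Of the 22395 genes, 2577 (11.5%) had all 4 treated arrays above both vehicle arrays and 2273 (10.1%) had all 4 below. There are 15 arrangements of 4 arrays against 2. With random spread alone, a share of 0.0667 of genes would be expected above and the same share below. With each array centred on its median the split turned to 1906 above and 2956 below, so these counts carry no direction for the whole transcriptome. Most such differences were small: the median size was 0.18 (log2) on either side. A gap of at least 0.1 between the nearest treated and nearest vehicle array was seen in 638 genes above (2.85%) and 539 below (2.41%), and one of at least 0.2 in 155 above (0.692%) and 123 below (0.549%). A gap of at least 0.3 was seen in 39 above (0.174%) and 35 below (0.156%), and one of at least 0.5 in 5 above (0.0223%) and 4 below (0.0179%).

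The share below vehicle grew with signal. With the genes split into 4 bins of equal size by mean signal, 10.7% lay above and 4.88% below in the lowest bin, and in the highest 12.5% lay above and 19.0% below. Among the 11197 genes above the median signal, the background for most lists described here, 11.9% lay above and 15% below, and among the 11198 others 11.1% lay above and 5.31% below. Protein-coding genes numbered 17029, with 11.9% above and 11% below, and long noncoding RNAs 1989, with 9.75% above and 7.29% below. Among 213 snoRNA genes, which guide the chemical modification of other RNAs, 27 (12.7%) lay above and 8 (3.76%) below.

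**Figure D2:**
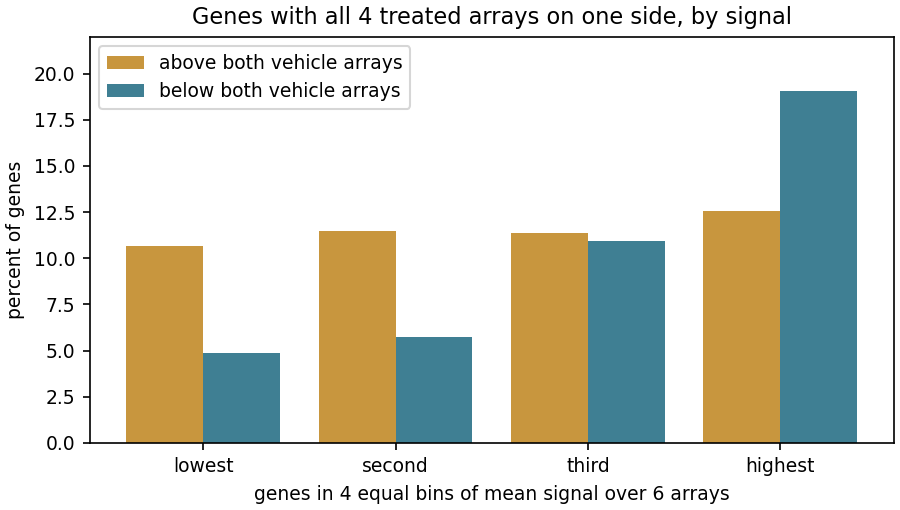
Percent of genes (y axis) whose 4 treated arrays lie above or below both vehicle arrays, in 4 bins of mean signal over the 6 arrays (x axis, about 5600 genes per bin). The share above stays between 10.7% and 12.5% while the share below goes from 4.88% to 19.0%.

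The rule for named genes took protein-coding genes above the median signal with the largest gaps, since too few passed: 21 above vehicle and 22 below. None of these 43 passed the pooled test, with limma adjusted p from 0.313 to 0.452 for those above and from 0.153 to 0.394 for those below. Their pooled differences ran from 0.36 to 1.03 in size above and from 0.33 to 0.73 in size below. With 4 against 2 arrays an exact permutation test has 15 arrangements and a smallest one-sided p of 0.0667, so none was used.

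Targets of p53 stood out by size among the 21 genes above vehicle. CDKN1A, the cyclin-dependent kinase inhibitor p21 that p53 raises, measured 6.08 and 6.24 with vehicle, 7.48 and 7.22 with Comp.2 and 6.82 and 6.69 with Comp.4 (pooled difference 0.89, limma adjusted p = 0.345). SPATA18, a p53 target that acts in mitochondrial quality control, measured 5.58 and 5.45 with vehicle, 7.13 and 7.05 with Comp.2 and 6.00 in both Comp.4 arrays. EDA2R, the ectodysplasin A2 receptor and another p53 target, measured 8.02 and 7.86 with vehicle, 9.24 and 9.31 with Comp.2 and 8.31 in both Comp.4 arrays. In all 3 genes the Comp.2 arrays stood clear above the Comp.4 arrays, while the place of both above vehicle followed from the rule for named genes. TRIAP1, a p53-regulated inhibitor of apoptosis, was more even, at 7.40 in both vehicle arrays, 8.07 and 7.96 with Comp.2 and 7.93 and 7.76 with Comp.4 (pooled difference 0.53).

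Signalling and surface proteins formed another role. CCL2, a chemokine that attracts monocytes, measured 5.99 and 6.13 with vehicle, 6.51 and 7.01 with Comp.2 and 7.04 and 6.79 with Comp.4, so the compounds overlapped each other while both lay above vehicle (pooled difference 0.78). CD70, a ligand of the TNF family, measured 6.00 and 5.98 with vehicle, 6.88 and 6.84 with Comp.2 and 6.49 and 6.39 with Comp.4 (pooled difference 0.66). FOSL1, a component of the transcription factor AP-1, measured 5.96 and 6.19 with vehicle, 6.66 in both Comp.2 arrays and 6.71 and 6.52 with Comp.4 (pooled difference 0.56). IRAK2, a kinase downstream of interleukin 1 and Toll-like receptors, was 0.46 higher, RNF19B, an E3 ubiquitin ligase, 0.42 higher, and RAP2B, a small GTPase, 0.44 higher.

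Proteases and lysosomal proteins were a further role. CTSS, the lysosomal protease cathepsin S, measured 6.63 in both vehicle arrays, 6.97 and 7.14 with Comp.2 and 7.24 and 7.31 with Comp.4 (pooled difference 0.53). CTSL, cathepsin L, measured 8.001 and 7.94 with vehicle, 8.31 and 8.38 with Comp.2 and 8.56 and 8.61 with Comp.4 (pooled difference 0.49). In both cathepsins the Comp.4 arrays were the higher. CD68, a lysosomal membrane glycoprotein best known from macrophages, measured 8.66 and 8.53 with vehicle, 9.29 and 9.25 with Comp.2 and 9.01 and 8.96 with Comp.4 (pooled difference 0.53). SLC17A5, the lysosomal sialic acid exporter, was 0.53 higher, with its vehicle arrays far apart at 6.65 and 7.04. PLAU, the urokinase plasminogen activator, measured 7.27 and 7.24 with vehicle, 7.80 and 7.91 with Comp.2 and 7.62 and 7.61 with Comp.4 (pooled difference 0.47).

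The remaining genes above vehicle were the following. SLC51B, a subunit of the basolateral bile acid and steroid transporter, measured 6.94 and 7.12 with vehicle, 7.49 and 7.55 with Comp.2 and 7.82 and 7.83 with Comp.4 (pooled difference 0.64). FA2H, which hydroxylates fatty acids for sphingolipids, measured 7.51 and 7.54 with vehicle, 8.02 and 8.01 with Comp.2 and 7.86 and 8.004 with Comp.4 (pooled difference 0.45). PTGES, a prostaglandin E synthase, was 0.43 higher, and FDX1, a mitochondrial ferredoxin of steroid synthesis and other pathways, 0.36 higher. LACC1, a purine metabolism enzyme of immune cells, was 0.59 higher and S100A3, a calcium-binding protein, 0.42 higher. By the rule for named genes, all of these lay above both vehicle arrays on all 4 treated arrays.

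The 22 genes below vehicle held a group that makes serine and handles branched-chain amino acids and folate. BCAT1, the cytosolic branched-chain aminotransferase, measured 6.10 in both vehicle arrays, 5.52 and 5.47 with Comp.2 and 5.45 and 5.62 with Comp.4 (pooled difference -0.58, limma adjusted p = 0.153). PSAT1, a serine synthesis enzyme, measured 11.44 and 11.28 with vehicle, 10.57 and 10.51 with Comp.2 and 10.83 and 10.90 with Comp.4 (pooled difference -0.66). PHGDH, which catalyses the first step of serine synthesis, measured 8.72 and 8.65 with vehicle, 7.95 and 8.05 with Comp.2 and 8.30 and 8.21 with Comp.4 (pooled difference -0.56). ALDH1L2, a mitochondrial folate enzyme, measured 7.02 and 7.03 with vehicle, 6.12 and 6.15 with Comp.2 and 6.33 and 6.59 with Comp.4 (pooled difference -0.73). In these last 3 genes the Comp.2 arrays were the lower, while in BCAT1 the arrays of the compounds overlapped. MMACHC, a vitamin B12 processing protein, differed by -0.40.

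CARS1 and AARS1 load cysteine and alanine onto their tRNAs. CARS1 measured 7.64 and 7.63 with vehicle, 6.76 and 6.66 with Comp.2 and 7.30 and 7.33 with Comp.4 (pooled difference -0.63). AARS1 measured 10.97 and 10.99 with vehicle, 10.45 and 10.44 with Comp.2 and 10.71 in both Comp.4 arrays (pooled difference -0.41). In both genes Comp.4 lay between vehicle and Comp.2.

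Transcription factors and signalling genes made up another share. MYC, a driver of cell growth, measured 9.04 and 9.06 with vehicle, 8.60 and 8.78 with Comp.2 and 8.74 and 8.76 with Comp.4 (pooled difference -0.33). SNAI1, a repressor of epithelial genes, measured 6.21 and 6.16 with vehicle, 5.86 and 5.89 with Comp.2 and 5.66 and 5.37 with Comp.4 (pooled difference -0.50). ERRFI1, a feedback inhibitor of the EGF receptor, measured 10.64 and 10.66 with vehicle, 10.29 and 10.28 with Comp.2 and 10.34 and 10.33 with Comp.4 (pooled difference -0.34). In ERRFI1 and MYC the treated arrays of both compounds lay close together below vehicle. KLF2, a zinc finger transcription factor, differed by -0.40 and ZNF460, whose promoter window is shown above, by -0.42. The receptor gene NTRK3 differed by -0.49, the phosphodiesterase gene PDE4D by -0.39, the calcium channel gene CACNA1D by -0.38, and AGO4, an Argonaute protein of RNA silencing, by -0.37. The remaining genes were ATXN1 (-0.47), MTUS1 (-0.47), NPIPA1 (-0.41), PRR3 (-0.38, from 1 of 7 probe sets), SNTB1 (-0.36) and CYP4F3 (-0.36), all as pooled log2 differences.

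**Figure D3:**
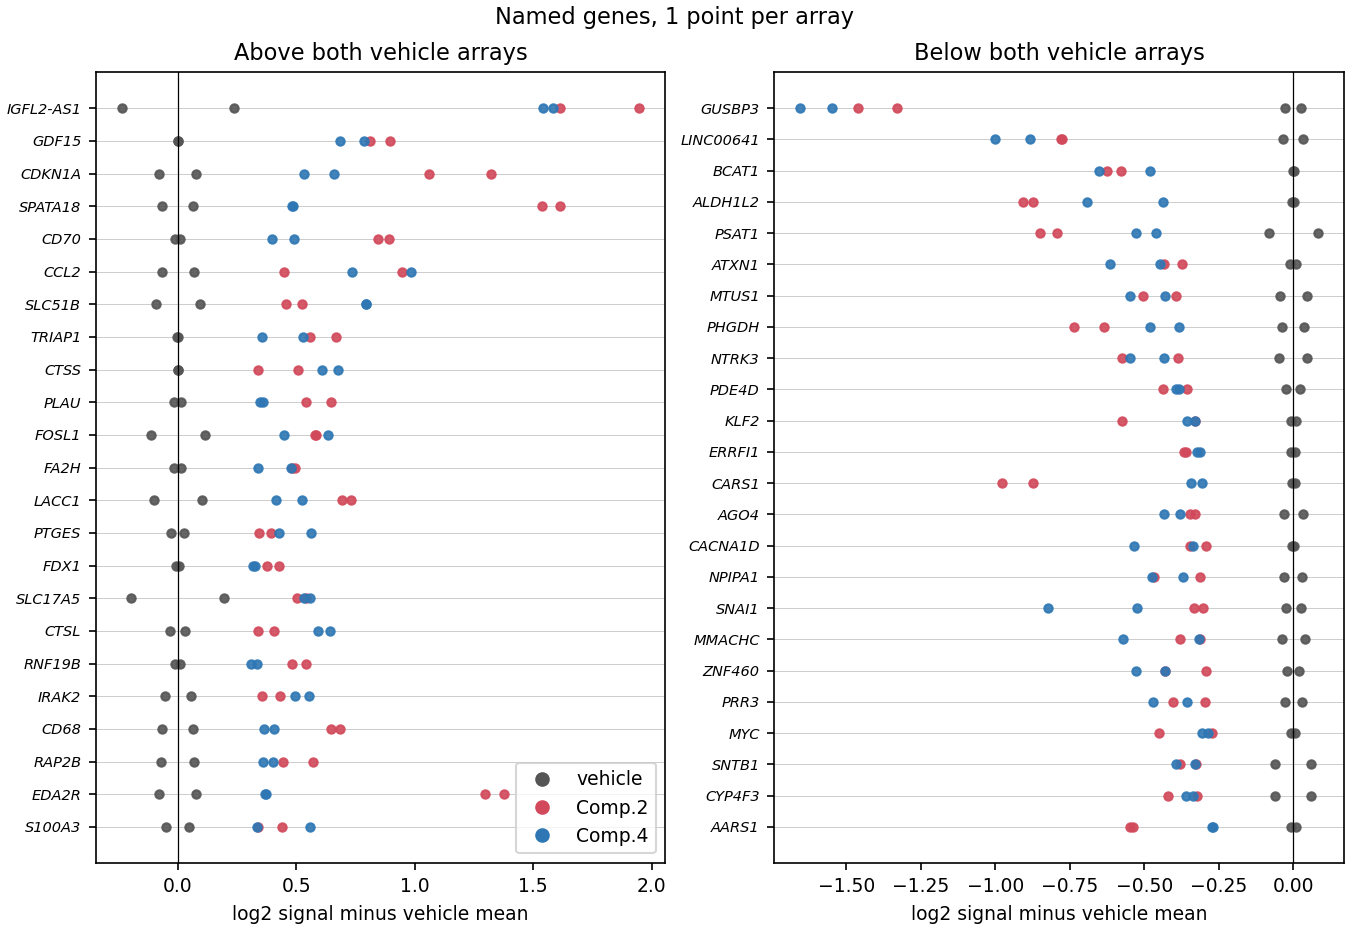
Log2 signal minus the vehicle mean (x axis) for the named genes (y axis), 1 point per array, coloured by group, with genes above vehicle on the left and below on the right. The 4 treated points of each gene lie on one side of both vehicle points; in SPATA18, EDA2R and CARS1 the compounds are far apart, in FOSL1, BCAT1 and ERRFI1 close together.

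Gene lists covering pathways, complexes and RNA classes were then read against these backgrounds. Among genes above the median signal 11.9% lay above and 15% below, and in the highest bin of signal 12.5% and 19.0%. A share near these values is no result about a list. No member of the lists described next passed the pooled test, so each list is given by how many members lay on one side. GDF15, a p53 target that passed, was not placed in the list of p53 targets. In the 3-group model, which takes the compounds' difference out of the spread, 4 genes were higher and 4 lower (0.0179% each way), and SPATA18, EDA2R, CHAC1 and STC2 passed as well (limma adjusted p = 0.0226, 0.0388, 0.0431 and 0.0431). The examples named within each list were chosen after their values were seen. In the list of p53 targets, 22 of 35 measured members (62.9%) lay above both vehicle arrays and none below, against 11.9% and 15% of genes above the median signal. The median pooled difference was 0.37, against 0.01 over all genes. SESN1, a stress-induced regulator of growth signalling, measured 5.24 and 5.39 with vehicle, 6.16 and 6.34 with Comp.2 and 5.64 and 5.85 with Comp.4 (pooled difference 0.68). FAS, a death receptor, was 0.57 higher, PHLDA3, an inhibitor of AKT, 0.57 higher, and BAX, a pore-forming protein of apoptosis, 0.50 higher. DDB2 and XPC, which recognise ultraviolet damage, were 0.51 and 0.27 higher. MDM2, the ubiquitin ligase that degrades p53, measured 8.75 and 8.79 with vehicle, 9.81 and 9.69 with Comp.2 and 8.82 and 8.92 with Comp.4, so under Comp.4 it cleared the vehicle arrays by only 0.03.

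The 13 p53 targets not on one side included the apoptosis genes BBC3 (0.15) and PMAIP1 (0.13), the polymerase gene POLH (0.48) and the ceramidase gene ACER2 (0.34), as pooled differences. Over the whole list the median was 0.63 under Comp.2 and 0.17 under Comp.4. In all 22 members above vehicle the Comp.2 mean was the higher, where 43.5% of all 2577 genes above vehicle had the larger difference under Comp.2. The difference between the compounds passed its own test in 4 of the 22 members, SPATA18, EDA2R, DDB2 and MDM2.

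Among 16 measured genes of the TNF family and death receptors, 9 lay above vehicle (56.25%) and 1 below (TNFRSF1A, -0.15). This compares with 11.9% above among genes above the median signal. The list median was 0.12, and 0.18 without vehicle replicate 1. Of the 9, EDA2R, FAS and TNFRSF10B also stand in the list of p53 targets. The others included CD70, TNFRSF12A, the receptor of the cytokine TWEAK, at 0.31, and TNFSF9, the ligand of the costimulatory receptor 4-1BB, at 0.31. TNFRSF12A was 0.27 higher under Comp.2 and 0.35 under Comp.4, and TNFSF9 0.39 and 0.23, while CD70 was 0.87 and 0.44 higher.

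In the list of ATF4 targets and amino acid response genes, 9 of 27 (33.3%) lay below vehicle and 1 above, with a median of -0.17. CHAC1, which breaks down glutathione, measured 8.02 and 7.91 with vehicle, 5.98 and 6.23 with Comp.2 and 7.58 and 7.77 with Comp.4 (pooled difference -1.08). STC2, a secreted glycoprotein, measured 7.87 and 7.83 with vehicle, 6.56 and 6.69 with Comp.2 and 7.62 in both Comp.4 arrays (pooled difference -0.73). ASNS, asparagine synthetase, measured 8.44 and 8.38 with vehicle, 7.50 and 7.31 with Comp.2 and 8.16 and 8.12 with Comp.4 (pooled difference -0.64). These 3 lay below vehicle with both compounds, yet far lower with Comp.2. CBS, which makes cystathionine, differed by -0.41, SHMT2, a mitochondrial serine and folate enzyme, by -0.23 and SLC7A11, the cystine importer, by -0.32. NUPR1, a small stress-induced nuclear protein, was the one member above vehicle, at 0.19.

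ATF4 itself was not on one side: it measured 10.35 and 10.38 with vehicle, 9.92 and 9.97 with Comp.2 and 10.53 and 10.41 with Comp.4. The ATF4-regulated genes TRIB3, DDIT3 and ATF3 were not on one side either, with pooled differences of -0.24, -0.14 and 0.05. The list median was -0.29 under Comp.2 and -0.03 under Comp.4. Of the 9 members below vehicle, 8 were lower under Comp.2, and the exception was SLC7A11, at -0.24 under Comp.2 and -0.40 under Comp.4.

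Of 14 amino acid transporters, 5 lay below vehicle (35.7%), none above and 9 on neither side, with a median of -0.15. Among genes above the median signal 15% lay below. SLC7A1, an importer of cationic amino acids, measured 8.94 and 8.99 with vehicle, 8.30 and 8.38 with Comp.2 and 8.70 and 8.62 with Comp.4 (pooled difference -0.47). SLC1A4, an importer of neutral amino acids, differed by -0.45. SLC38A1 (-0.19) and SLC38A2 (-0.10), which import glutamine and other neutral amino acids, were closer to vehicle. Of the 19 measured aminoacyl-tRNA synthetases, which load tRNAs with amino acids, 10 lay below vehicle (52.6%) and 1 above, with a median of -0.12. Beside CARS1 and AARS1 these were YARS1 (-0.44), GARS1 (-0.42), MARS1 (-0.35), EPRS1 (-0.30), SARS1 (-0.24), IARS1 (-0.19), LARS1 (-0.18) and TARS1 (-0.12), as pooled differences. RARS1 lay above vehicle at 0.14. All 10 below vehicle were lower under Comp.2, while the difference between compounds passed its test only in CARS1.

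Chaperones and sensors of endoplasmic reticulum folding had 5 of 18 below vehicle (27.8%) and none above. Their median was 0.01, and -0.02 with arrays centred on the median. HSPA5, the main chaperone of that compartment, differed by -0.11 and ATF6, one of its stress sensors, by -0.14. Targets of NRF2, the regulator of antioxidant genes, had 5 of 21 below and none above with a median of -0.03, led by SLC7A11, OSGIN1 (-0.27) and GCLC (-0.25). Their share below, 23.8%, compares with 19.0% of all genes in the highest bin of signal.

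**Figure D4:**
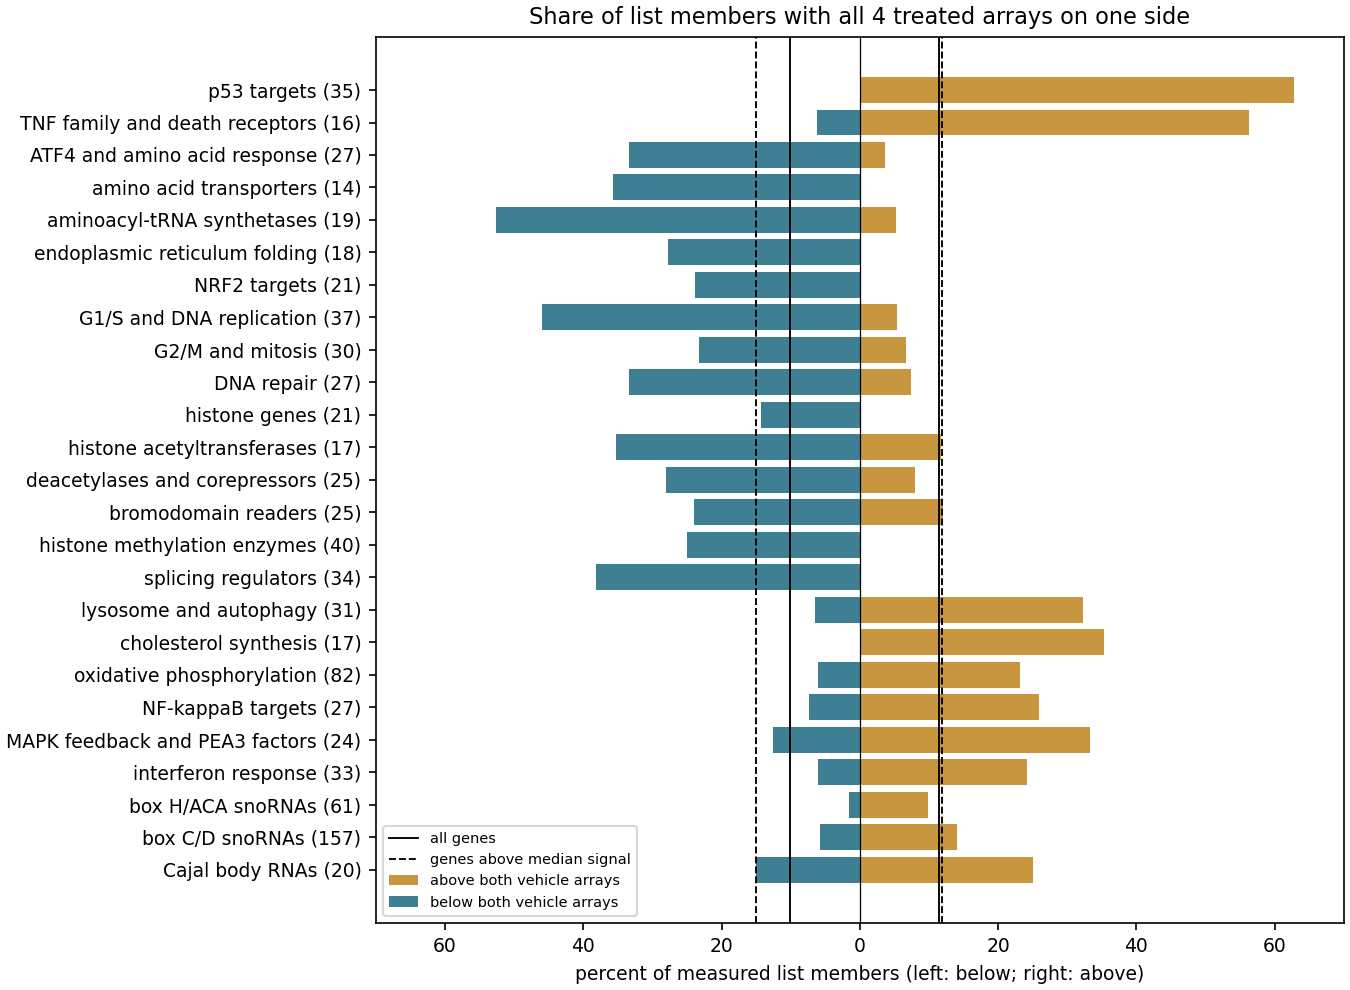
Percent of measured list members (x axis) whose 4 treated arrays lie below (left) or above (right) both vehicle arrays, for 25 gene lists (y axis, number measured in brackets); solid lines mark the share among all genes, dashed lines that among genes above the median signal. p53 targets reach 62.9% above and aminoacyl-tRNA synthetases 52.6% below.

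Genes of the G1/S transition and DNA replication lay below vehicle in 17 of 37 cases (45.9%) and above in 2, with a median of -0.11 that was alike under Comp.2 (-0.10) and Comp.4 (-0.09). MCM3, a subunit of the replicative helicase, measured 9.45 in both vehicle arrays, 9.13 and 9.18 with Comp.2 and 9.24 and 9.23 with Comp.4 (pooled difference -0.25). Other helicase subunits, MCM5 and MCM7, both differed by -0.20. POLA1, the DNA polymerase alpha catalytic subunit, and ORC1, of the origin recognition complex, both differed by -0.25, and the transcription factors E2F2 and E2F8 by -0.22 and -0.25. The 2 members above vehicle were CCNE2, a cyclin of S phase entry, at 0.17 and TYMS, thymidylate synthase, at 0.09. Differences in this list were small, the largest among members on one side being 0.25 in size.

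Genes of G2/M and mitosis lay below vehicle in 7 of 30 cases (23.3%) and above in 2, with a median of -0.05. In the highest bin of signal 19.0% of all genes lay below. MKI67, the proliferation marker Ki-67, measured 11.09 and 11.15 with vehicle, 11.0002 and 10.96 with Comp.2 and 10.80 and 10.77 with Comp.4 (pooled difference -0.24). AURKA, a mitotic kinase, differed by -0.16, while CCNB1, a mitotic cyclin, was 0.07 higher and also on one side. DNA repair genes lay below in 9 of 27 cases (33.3%) and above in 2, with a median of -0.09. PRKDC, the kinase of end joining, measured 10.16 and 10.17 with vehicle, 9.96 in both Comp.2 arrays and 9.83 and 9.79 with Comp.4 (pooled difference -0.28). MSH6, a mismatch repair protein, and CHEK1, a checkpoint kinase, both differed by -0.18, and LIG4, the ligase of end joining, lay above vehicle at 0.26.

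Because the series title names histone acetyltransferases, their own transcripts were read in every sample. EP300 measured 8.91 and 8.96 with vehicle, 8.86 and 8.88 with Comp.2 and 8.53 and 8.72 with Comp.4, so all 4 treated arrays lay below, by a gap of 0.03. Its pooled difference was -0.19, with a 95% interval from -0.43 to 0.06 (limma adjusted p = 0.610). CREBBP measured 9.56 and 9.67 with vehicle, 9.60 and 9.65 with Comp.2 and 9.26 and 9.15 with Comp.4. It was not on one side: the Comp.2 arrays lay between the vehicle arrays (pooled difference -0.20, 95% interval -0.54 to 0.13, adjusted p = 0.692).

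Of 17 measured acetyltransferases, 6 lay below vehicle (35.3%) and 2 above (11.8%). Among genes above the median signal 15% lay below and 11.9% above, and in the highest bin of signal 19.0% lay below. The median of the acetyltransferases, -0.12, combined -0.01 under Comp.2 with -0.19 under Comp.4. Beside EP300, those below were KAT6A (-0.18), KAT6B (-0.26), KAT8 (-0.18), GTF3C4 (-0.18) and the dim TAF1 (-0.28). KAT2A, the catalytic subunit of the SAGA complex, was 0.15 higher and HAT1, which acetylates newly made histones, 0.07 higher. Deacetylases and corepressors had 7 of 25 below (28%) and 2 above (8%) with a median of -0.05. SIRT1, an NAD-dependent deacetylase, measured 8.13 and 8.19 with vehicle, 7.82 and 7.77 with Comp.2 and 7.84 and 7.96 with Comp.4 (pooled difference -0.32), and SIN3A, a corepressor scaffold, differed by -0.18.

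Bromodomain genes, whose proteins bind acetylated lysine, had 6 of 25 below (24%) and 3 above (12%). Their median was -0.06 (-0.01 under Comp.2 and -0.11 under Comp.4). Enzymes that write or erase histone and DNA methylation had 10 of 40 below (25%) and none above with a median of -0.11. They were led by SETDB1 (-0.21), EZH1 (-0.21), SETD2 (-0.19) and DNMT3A (-0.19). Histone genes had 3 of 21 below (14.3%) and none above with a median of -0.06, and H2BC17 differed by -0.31. That share below is close to the 15% of genes above the median signal. The list medians were -0.19 under Comp.2 and 0.06 under Comp.4 for histone genes, and -0.04 and -0.16 for the methylation enzymes. Without Comp.2 replicate 1 or 2 the pooled median of the histone genes turned to 0.00751 and 0.0323.

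Splicing regulators lay below vehicle in 13 of 34 cases (38.2%) and above in none, with a median of -0.10. Of these 13, 11 were lower under Comp.4, where 1406 of all 2273 genes below vehicle were. HNRNPC, given above, was the largest at -0.53. SRRM2, a scaffold of the spliceosome, measured 9.84 and 9.88 with vehicle, 9.79 and 9.83 with Comp.2 and 9.33 in both Comp.4 arrays, so its pooled difference of -0.30 came mainly from the Comp.4 arrays. HNRNPA2B1 differed by -0.22 and HNRNPU by -0.17, and both bind nascent transcripts.

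Lysosome and autophagy genes lay above vehicle in 10 of 31 cases (32.3%) and below in 2, with a median of 0.09. Besides CTSS, CTSL and CD68 these included WIPI1, an autophagosome protein, at 0.35 and LAMP2, a lysosomal membrane protein, at 0.24. ULK1, the kinase that starts autophagy, lay below at -0.23. Cholesterol synthesis genes lay above in 6 of 17 cases (35.3%) and below in none, with a median of 0.18 (0.06 under Comp.2 and 0.15 under Comp.4, each list median taken on its own). MSMO1, a sterol demethylation enzyme, measured 8.86 and 8.88 with vehicle, 9.15 and 9.23 with Comp.2 and 9.16 and 9.14 with Comp.4 (pooled difference 0.30), with the compounds overlapping. INSIG1, the sterol-regulated retention factor of that pathway, was 0.33 higher. The mevalonate enzymes IDI1, MVD, HMGCS1 and PMVK were 0.31, 0.28, 0.22 and 0.21 higher.

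Genes of oxidative phosphorylation, assembly factors included, lay above in 19 of 82 cases (23.2%) and below in 5, with a median of 0.05. The median was -0.00 under Comp.2 and 0.10 under Comp.4, and 18 of the 19 were higher under Comp.4. NDUFAF8, an assembly factor of complex I, was the exception at 0.38 under Comp.2 and 0.28 under Comp.4, and it had the largest pooled difference at 0.33. ATP5F1C, a subunit of ATP synthase, measured 11.09 and 11.15 with vehicle, 11.27 and 11.28 with Comp.2 and 11.49 and 11.41 with Comp.4 (pooled difference 0.24). NDUFS1, a core subunit of complex I, lay below at -0.29.

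Targets of NF-kappaB, the transcription factor of inflammation, lay above in 7 of 27 cases (25.9%) and below in 2. Of the 27, 18 were above the median signal, where 11.9% of genes lay above vehicle, against 11.5% of all genes. The list median was 0.13 (0.03 under Comp.2 and 0.17 under Comp.4). CCL2 was the largest, followed by the neutrophil chemokine CXCL5, which measured 10.40 and 10.45 with vehicle, 10.74 and 10.59 with Comp.2 and 10.93 and 10.95 with Comp.4 (pooled difference 0.38). The inhibitors NFKBIE and NFKBIA were 0.33 and 0.21 higher, while the subunits REL and RELA lay below at -0.18 and -0.19. Feedback genes of MAPK signalling lay above in 8 of 24 cases (33.3%) and below in 3 (12.5%). Their median was 0.12 (0.04 under Comp.2 and 0.14 under Comp.4), and 0.0441 among members above the median signal. Beside FOSL1 these included HBEGF, an EGF receptor ligand, at 0.30, PHLDA1 at 0.28, the phosphatases DUSP5 and DUSP4 at 0.28 and 0.26, and JUN, an AP-1 component, at 0.21. The members below were MYC, ETV1 (-0.22) and CCND1 (-0.11).

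Interferon response genes lay above in 8 of 33 cases (24.2%) and below in 2 (6.06%), with a median of 0.08. Only 16 of the 33 were above the median signal, and of all genes 11.5% lay above and 10.1% below. RIGI, a sensor of viral RNA, measured 6.61 and 6.52 with vehicle, 7.07 and 7.18 with Comp.2 and 6.78 and 6.99 with Comp.4 (pooled difference 0.44). IFI6 was 0.37 higher, OASL 0.25 and IFIT3 0.24, while classic members such as MX1 (0.14) and ISG15 (0.15) were not on one side.

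Small noncoding RNAs were read against the 11.5% of all genes above vehicle and 10.1% below. Box H/ACA snoRNAs, which guide pseudouridylation, lay above in 6 of 61 cases (9.84%) and below in 1, with a median of 0.09 that combined -0.11 under Comp.2 with 0.31 under Comp.4, and it was 0.0259 and 0.0301 without Comp.4 replicate 1 or 2. Box C/D snoRNAs, which guide methylation, lay above in 22 of 157 cases (14%) and below in 9, with a median of 0.04. SNORD71 measured 9.22 and 9.23 with vehicle, 9.57 and 9.56 with Comp.2 and 9.90 and 9.92 with Comp.4 (pooled difference 0.51). Cajal body RNAs, which guide the modification of spliceosomal RNAs, lay above in 5 of 20 cases and below in 3, with a median of 0.11 that was 0.00603 without Comp.4 replicate 1 and 0.0151 without Comp.4 replicate 2. SCARNA3 measured 7.22 and 7.10 with vehicle, 6.03 and 6.48 with Comp.2 and 5.74 and 5.64 with Comp.4 (pooled difference -1.19), whereas SCARNA7 measured 7.40 and 7.43, 8.38 and 8.29, and 8.11 and 7.90 in the same order (0.75). Both lay clear of vehicle, in opposite directions, and neither passed (adjusted p = 0.313 for each). The other 25 of the 50 lists had between 0% and 31.8% of members above and between 0% and 27.6% below, with medians from -0.05 to 0.13.

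Comp.2 and Comp.4 were tested at the same dose and time, and the 1 pair of compounds was compared over all genes in a fit with a mean per group. Of the 22395 genes, 43 were higher (0.192%) and 40 lower (0.179%) under Comp.4 than under Comp.2 (limma adjusted p below 0.05). With any 1 of the 6 arrays left out at most 1 gene passed, and with genes above the median signal alone 324 were higher and 392 lower. Of the 4850 genes on one side of vehicle, 20 differed between the compounds (0.412%), 11 above vehicle and 9 below. The structures are not described in the labels, so the difference is given by code name only. Each compound's difference from vehicle uses the same vehicle arrays.

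SPATA18 was 1.57 higher than vehicle under Comp.2 and 0.48 under Comp.4, a difference of -1.09 (Comp.4 minus Comp.2, 95% interval -1.28 to -0.90, adjusted p = 0.0166). EDA2R was 1.34 and 0.37 higher, a difference of -0.96 (interval -1.16 to -0.77, adjusted p = 0.0187). MDM2 was 0.98 and 0.10 higher and DDB2 0.85 and 0.18 higher. The other genes above vehicle and higher under Comp.2 were SULF2, a heparan sulfate sulfatase (1.09 and 0.12), CYFIP2, an actin regulator (0.91 and 0.23), the complement component C3 (0.83 and 0.18), the chaperone HSPA4L (0.80 and 0.17) and MIR3685 (0.92 and 0.09). RN5S19 and RN5S150 were higher under Comp.4. All 9 genes that were higher under Comp.2 thus lay only slightly above vehicle under Comp.4, apart from SPATA18 and EDA2R.

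Below vehicle, CHAC1 was -1.86 under Comp.2 and -0.29 under Comp.4, a difference of 1.57 (95% interval 1.30 to 1.84, adjusted p = 0.0166). STC2 was -1.23 and -0.23 (difference 0.99, adjusted p = 0.0166) and ASNS -1.01 and -0.27 (difference 0.74, adjusted p = 0.0365). CARS1 was -0.93 and -0.32 (difference 0.60, interval 0.43 to 0.78, adjusted p = 0.0385). All 4 belong to the lists of amino acid response or tRNA charging. The 5 that were lower under Comp.4 were METTL2B, a tRNA methyltransferase, and the noncoding LINC01347, LINC01061, LINC01000 and HNRNPU-AS1.

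For the 4 genes past the pooled threshold the test between compounds did not pass, and the intervals bound the difference. Comp.4 minus Comp.2 was -0.12 for GDF15 (95% interval -0.30 to 0.06), -0.22 for IGFL2-AS1 (-0.63 to 0.19), -0.21 for GUSBP3 (-0.40 to -0.01) and -0.16 for LINC00641 (-0.35 to 0.02). The point estimate was near 0 for FOSL1 (-0.04, -0.29 to 0.21), BCAT1 (0.03, -0.16 to 0.23), PDE4D (0.01, -0.16 to 0.18) and NTRK3 (-0.01, -0.23 to 0.21). CDKN1A differed by -0.60 (interval -0.86 to -0.33), which did not pass after adjustment (adjusted p = 0.1001).

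**Figure D5:**
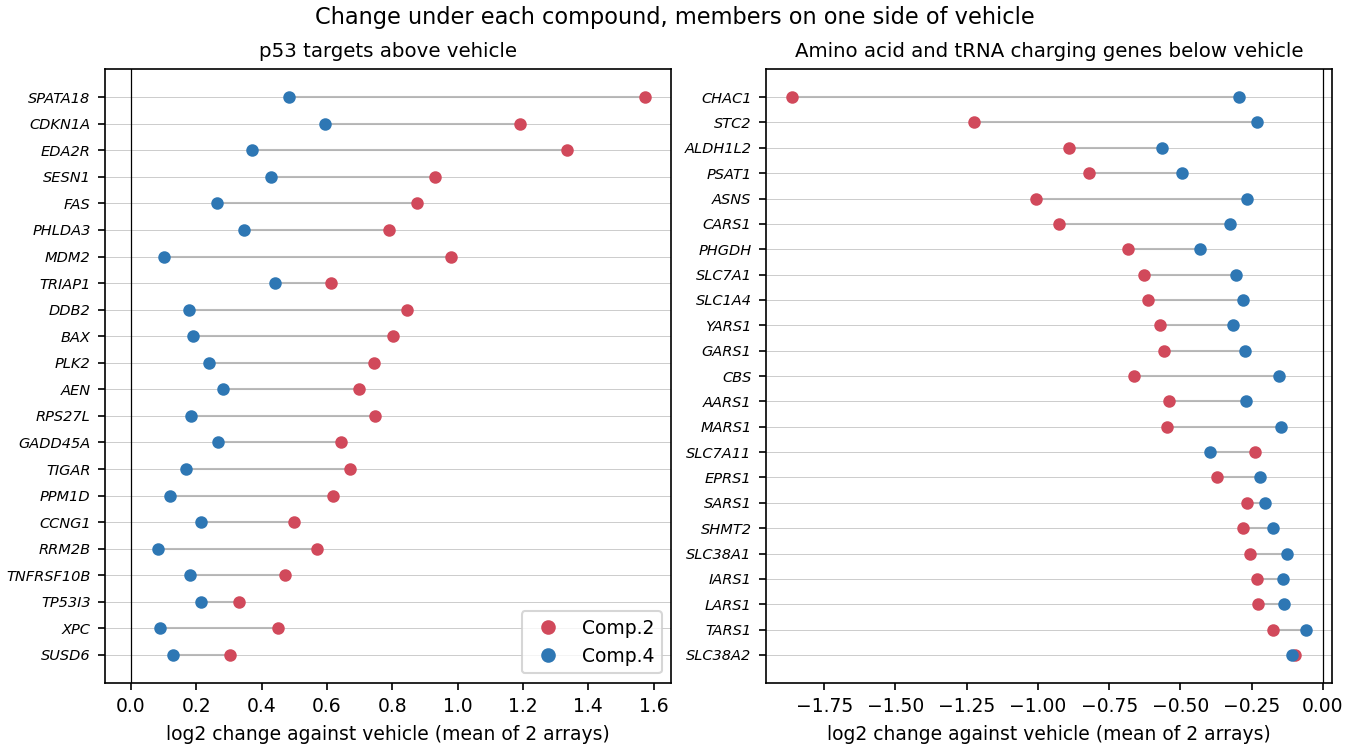
Log2 difference from vehicle (x axis, mean of 2 arrays) under Comp.2 and Comp.4 for the p53 targets above vehicle (left) and the amino acid and tRNA charging genes below vehicle (right); a line joins the values of a gene. All 22 p53 targets lie farther from vehicle under Comp.2, from SPATA18 at 1.57 and 0.48 downwards, and CHAC1 spans -1.86 to -0.29.

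Epithelial markers were bright or moderate on all 6 arrays: EPCAM measured between 7.22 and 7.48, CDH1, the epithelial cadherin, between 10.02 and 10.35, and KRT8 and KRT18, the simple-epithelium keratins, between 7.47 and 8.34. Of 26 measured alveolar and airway genes, 14 lay above the median signal. The surfactant gene SFTPC, at 4.54 to 4.92, and the lung factor NKX2-1, at 4.23 to 4.50, were dim. Summed log2 levels over the marker lists overlapped between vehicle and treated arrays for all but the leukocyte list. They were 148.6 to 149.6 against 149.4 to 150.7 for 26 alveolar and airway genes, and 39.8 to 39.8 against 39.6 to 40.5 for 8 endothelial genes. The sums were 28.06 to 28.604 against 28.602 to 29.05 for 7 fibroblast genes and 51.15 to 51.73 against 51.74 to 52.52 for 11 leukocyte genes. In the leukocyte sum all 4 treated arrays thus lay just above both vehicle arrays. The leukocyte gene PTPRC stayed at 2.64 to 2.78, close to the lowest values on the arrays, while CD68 and ITGAM, an integrin of myeloid cells, were the 2 leukocyte markers on one side, at 0.53 and 0.19. The fibroblast marker PDGFRB (0.18) and the endothelial marker CDH5 (0.27) also lay above vehicle. The part of other cell types in the results was not tested.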

How the data were processed

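RNA of 6 A549 samples (vehicle, Comp.2 and Comp.4, 2 each) was measured on Affymetrix whole-transcript arrays, and all value columns of the deposited table belonged to these samples. The authors deposited log2 values made with RMA, per the submitters' processing notes, where Expression Console 1.3.1 and Transcriptome Analysis Console 2.0 of Affymetrix are listed without their steps. The array medians lay between 4.55 and 4.56, so the arrays had been put on one scale before deposit, which hides any shift common to the whole transcriptome. The floor that background sets understates differences of dim genes. Of 53617 probe sets, 23871 carried 1 gene symbol, 1842 several and 27904 none here. RefSeq (GRCh38.p14) matched 22569 by Entrez number and updated 90 symbols. Where several probe sets matched (632 genes), the brightest on average was kept, which gave 22395 genes.

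The pooled difference was fitted with limma 3.58.1 in R 4.3.3 as 4 treated against 2 vehicle arrays (4 residual and 4.25 prior degrees of freedom). A fit with a mean per group (3 residual and 3.71 prior) gave each compound's value and Comp.4 minus Comp.2. P-values are two-sided and adjusted by Benjamini-Hochberg over all 22395 genes, with a threshold of 0.05. The pooled fit counts a difference between the compounds as spread. The number of arrays limits the precision.

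Named genes were those past the threshold, EP300 and CREBBP, and, since few passed, the protein-coding genes above the median signal with the largest gap between the nearest treated and nearest vehicle array. The 50 gene lists, of 2990 distinct genes with 29 in more than 1 list, came from textbook knowledge or symbol prefixes. The comparison and the lists were chosen with earlier results of these data known, so they are no independent support. Lists are described by counts and medians without a test. Alternatives covered the model of the treated group, the variance trend, the filter on dim genes, the choice of probe sets, the features tested, the scaling, the replicate block, the arrays used, the threshold and the gap. The scripts were tested on simulated data. Python 3.11.15 with pandas 2.3.3 was used for the counts and for the motif search.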

Additional observations from a re-analysis of the deposited data

Results flagged for a closer look

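The tested difference between the compounds stood out in 3 named genes on one side of vehicle. Comp.4 minus Comp.2 was -1.09 for SPATA18, -0.96 for EDA2R and 0.60 for CARS1 on the log2 scale, each past the limma threshold. In all 3 the Comp.2 arrays lay farther from vehicle.

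Among the 4 treated arrays, 1 array stood apart from the other 3 in 2 named genes, by a gap of 0.886 of the range in FA2H (Comp.4 replicate 1, the lowest) and 0.899 in KLF2 (Comp.2 replicate 1, the lowest). Both genes were named because all 4 treated arrays lay on one side of vehicle. Chance flags about 1 in 20 such groups, and 49 genes were examined.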

How the results depend on the processing

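The main counts were 2 higher and 2 lower genes past the threshold, and in every setting run the genes that passed also had their arrays on one side, so both counts were equal. They were 4 and 4 with a 3-group model (adding SPATA18, EDA2R, CHAC1 and STC2), 4 lower with genes above the median signal alone, 1 lower with the mean over probe sets, and 1 and 1 with quantile normalization repeated. They were 0 higher and 1 lower with arrays centred on the median (limma unadjusted p below 0.05: 850 higher, 1381 lower). They were 0 and 0 for all probe sets (unadjusted 2108 and 2574), 0 and 0 for protein-coding genes only (1009 and 829), 9 and 5 with Comp.2 arrays alone, and 0 and 0 with Comp.4 arrays alone (1999 and 1767). With any 1 array left out the counts were 0 higher and 0 to 1 lower. With the replicate number as a block they were 1 and 1, and 0 and 0 for Comp.4 minus Comp.2. Deviations of same-numbered samples correlated at 0.0291, 0.0118 and -0.0417, so the numbers gave no pairing.

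Genes on one side numbered 1337 above among genes above the median signal, 5490 above and 5271 below over all probe sets, 638 and 539 at a gap of 0.1, and 155 and 123 at 0.2. With an array left out they ranged from 3268 to 5145 above and from 2887 to 4352 below, since fewer arrays meet the condition more easily. Comp.4 minus Comp.2 gave 484 higher and 591 lower once a variance trend was fitted, 324 and 392 for genes above the median signal, 1 and 1 over all probe sets, 14 higher among protein-coding genes only, 122 and 152 at an adjusted p of 0.10, and 0 to 1 higher and 0 lower with an array left out.

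The list medians that moved by more than the SD of the 4 treated arrays' own list medians were TNF family genes (0.31 above the median signal, 0.0891 to 0.18 with an array left out), G2/M (-0.0743 centred), DNA repair (-0.11 centred, -0.12 to -0.0662 with an array left out) and interferon response (0.12 above the median signal). With an array left out, other medians moved within that SD but by much of their size: histone genes from -0.13 to 0.0323, Cajal body RNAs from 0.00603 to 0.15, box H/ACA snoRNAs from 0.0259 to 0.16, oxidative phosphorylation from 0.0162 to 0.0713, ATF4 targets from -0.26 to -0.13 and endoplasmic reticulum folding from -0.0202 to 0.0275. The median of MAPK feedback genes was 0.0441 above the median signal. CREBBP turned to 0.00678 with Comp.2 arrays alone. Over 15 alternatives the call was lost in 11 for GDF15, 9 for IGFL2-AS1, 3 for GUSBP3 and 12 for LINC00641, with no change of sign. That tally left out the runs over all probe sets, protein-coding genes only and genes above the median signal. In the first 2 of these nothing passed, and in the last all 4 genes did. Apart from fewer arrays or features tested, the cause was not tested. The 2 arrays per group and dim signal limit what these data can show.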
